A study of Mus musculus with 28 samples.

Results

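The 8 genes described here, Bnip3, Bnip3l, Ak4, P4ha1, P4ha2, Vegfa, Ankrd37 and Ndrg1, are known targets of the hypoxia-inducible factors (HIF), and were taken by gene symbol from the 13128 named genes of the expression table, in which all 8 were found. They were followed in DC2 cells, an immortalized mouse epithelial line of the epididymis (distal caput segment), grown on rat-tail collagen in medium with 10% serum. Corticosterone, the main glucocorticoid of rodents, was given at 500 ng/ml in ethanol, and vehicle cultures received 0.1% ethanol. There were 4 libraries of stranded mRNA in each of 7 groups, 28 in all. The vehicle group of day 0 was taken before treatment and had received neither ethanol nor hormone. Vehicle and corticosterone groups followed at day 3, the end of the treatment, and at days 6 and 9, which lay 3 and 6 days into recovery. The medium was replaced at 72 h and at 144 h. All groups share the one immortalized line, and the labels do not say whether the libraries of a group came from separate cultures, so p-values measure the spread between these libraries only.

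HIF are dimers of an oxygen-labile α subunit (encoded by Hif1a or Epas1) and a stable β subunit (encoded by Arnt or Arnt2). When oxygen is plentiful, prolyl hydroxylases encoded by the Egln genes mark the α subunit for destruction, and when it is scarce the dimer accumulates and binds hypoxia response elements, short sequences with the core ACGTG or GCGTG. The targets are known for shifting cells from oxidative to glycolytic metabolism, for removing mitochondria, for collagen modification and for attracting vessels. Of the members, Bnip3 and Bnip3l encode receptors on the outer mitochondrial membrane that recruit the autophagy machinery (mitophagy), and Ak4 encodes an adenylate kinase of the mitochondrial matrix. P4ha1 and P4ha2 encode alternative catalytic α subunits of collagen prolyl 4-hydroxylase, and Vegfa encodes the secreted growth factor that binds the receptor Kdr. Ankrd37 encodes an ankyrin repeat protein used as a marker of hypoxia, and Ndrg1 encodes a stress-responsive cytoplasmic protein and substrate of the kinase SGK1.

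The sequence before the annotated start of 4 members is shown because each holds several copies of the core that HIF bind. These RefSeq promoter sequences (GRCm38.p6) run 5′ to 3′ on the gene's strand and leave out bases lying in exons, and capitals mark each core on either strand, so that CACGC and CACGT are cores read from the opposite strand. Bnip3 (gene at chr7:138890836-138909519, minus strand) is shown at chr7:138909520-138909756, Ankrd37 (gene at chr8:45996902-46005707, minus strand) at chr8:45999868-46000100, P4ha1 (gene at chr10:59323296-59373304, plus strand) at chr10:59323046-59323295, and P4ha2 (gene at chr11:54100095-54131665, plus strand) at chr11:54100674-54100923. The stretches of Ankrd37 and P4ha2 lie within the annotated gene and outside its exons, since other transcripts of these genes start further upstream.
Bnip3: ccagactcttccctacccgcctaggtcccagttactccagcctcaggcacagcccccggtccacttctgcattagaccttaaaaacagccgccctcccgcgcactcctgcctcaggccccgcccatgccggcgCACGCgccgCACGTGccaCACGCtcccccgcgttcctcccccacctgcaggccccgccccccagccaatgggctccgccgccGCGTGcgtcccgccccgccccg
Ankrd37: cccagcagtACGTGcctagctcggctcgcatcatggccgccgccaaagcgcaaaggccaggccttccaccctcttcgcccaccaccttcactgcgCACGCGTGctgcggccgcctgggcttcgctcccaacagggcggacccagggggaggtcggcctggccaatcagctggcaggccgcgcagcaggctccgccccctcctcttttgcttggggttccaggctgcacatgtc
P4ha1: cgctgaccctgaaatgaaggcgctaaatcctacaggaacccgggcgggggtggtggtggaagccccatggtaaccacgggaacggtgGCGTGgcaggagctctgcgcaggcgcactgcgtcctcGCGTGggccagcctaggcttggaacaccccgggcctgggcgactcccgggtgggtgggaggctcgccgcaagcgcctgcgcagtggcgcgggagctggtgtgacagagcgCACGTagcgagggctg
P4ha2: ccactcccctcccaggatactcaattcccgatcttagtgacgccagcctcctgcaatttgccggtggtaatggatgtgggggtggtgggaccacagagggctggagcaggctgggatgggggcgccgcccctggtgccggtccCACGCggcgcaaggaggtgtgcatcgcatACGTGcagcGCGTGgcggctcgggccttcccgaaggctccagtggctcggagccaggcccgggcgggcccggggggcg

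The Bnip3 stretch held 5 cores, of which an overlapping pair reads ACGTG on both strands within CACGTG, and the stretches of Ankrd37, P4ha1 and P4ha2 held 3 each. The search covered the 300 bases from 250 before to 50 after each annotated start, on both strands and with overlapping matches counted. It used the 10 windows of 6 members, which were these 4, Ak4 with 4 starts (gene at chr4:101419277-101466995, plus strand) and Vegfa with 2 (gene at chr17:46016993-46032369, minus strand). Bnip3l (chr14:66985239-67008877, minus strand) and Ndrg1 (chr15:66929318-66969640, minus strand) were not searched. The Ak4 windows beginning at chr4:101419039, 101419062 and 101419071 overlap and hold the same 2 cores, and they were counted separately. The core was found for all 6 members, in 9 of their 10 windows. It is a short and common sequence, found in 43.8% of the 32851 windows of all genes and for 67.0% of the 10074 tested genes with a window. The longer sequence formed by the core and a following C was also found for all 6 members, against 29.8% of tested genes. The Vegfa window at the start of the longest transcript held no core, and its other window held one on each strand. Those 2 Vegfa cores lie in annotated exons, which cover 218 of the 250 bases before that start. A match describes these letters and shows no binding.

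**Figure D1:**
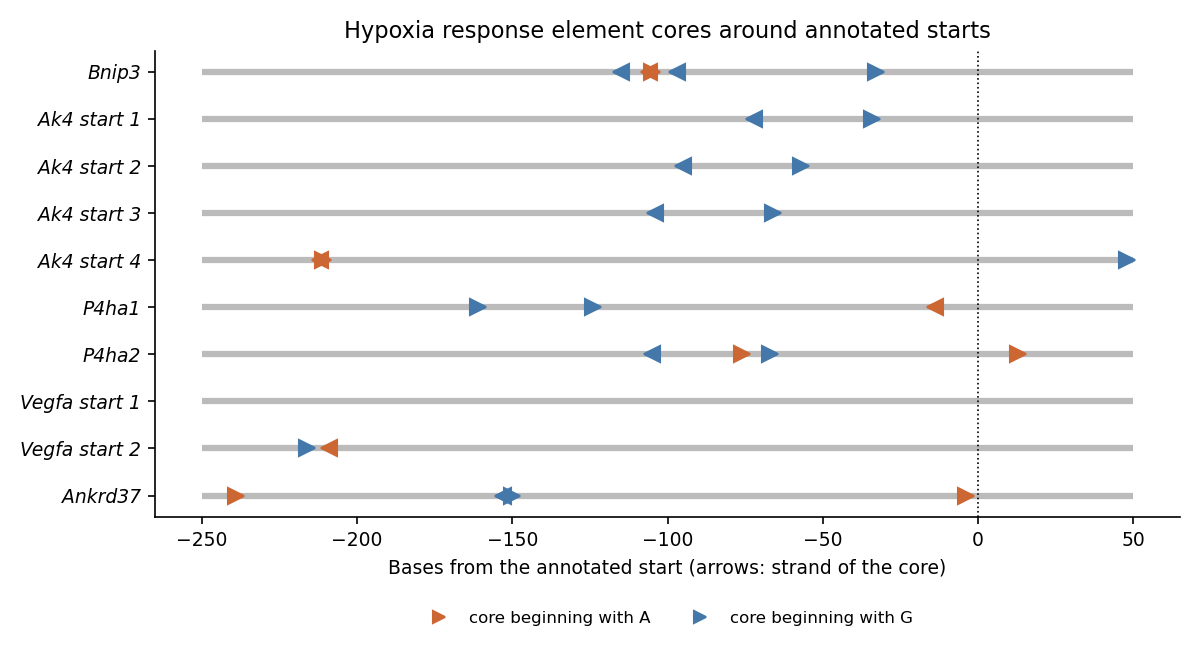
Positions of the cores ACGTG (orange) and GCGTG (blue) in the windows from 250 bases before to 50 bases after the annotated starts of 6 members, where arrows give the strand of each core. In 9 of the 10 windows at least 1 core was found, and the first Vegfa window held none. The Ak4 windows that overlap show the same cores.

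The values are log2 CPM, in which each read count is scaled to the depth of its library and normalized by the authors, so that a difference of 1 is a 2-fold change, and they compare libraries for one gene but not genes with each other. Differences are given as log2 fold change ± SE with 4 libraries in each group, from limma fitted across all genes, and a gene rose or fell where the Benjamini-Hochberg adjusted p was under 0.05. In such bulk libraries fewer cells with a transcript and less of it per cell cannot be told apart. The glucocorticoid label was checked on Fkbp5, a standard glucocorticoid target, which was 3.05 ± 0.12 higher with corticosterone at day 3, 2.61 ± 0.12 higher at day 6 and still 0.74 ± 0.12 higher at day 9. At corticosterone day 6 replicate 6 had the lowest Fkbp5 of its group, 8.32 log2 CPM against a group median of 9.14, and without it the day 6 calls of all 8 members were also made. Of 15 epithelial markers 9 had an entry, among them Krt8, Krt18, Epcam and Cdh1, with summed levels of 253 to 364 CPM in the 28 libraries. The caput markers Crisp1, Lcn5, Lcn8, Lcn9 and Cst8 had no entry in the table used here.

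In vehicle cultures all 8 genes were higher at day 6 and at day 9 than before treatment, and at day 9 the differences ran from 2.41-fold for P4ha1 to 19.2-fold for Ankrd37 and 19.6-fold for Bnip3, with Ak4 beyond them from a level near the lower end of the table. Over all tested genes, 36.4% were called higher at day 6 and 35.9% at day 9. The median of the 8 log2 fold changes was 2.02 at day 6 and 2.39 at day 9, where the median over all genes was 0.03 and 0.02. All comparisons with day 0 share the same 4 libraries of day 0. Values of single libraries are given below in order of replicate number, which runs from 3 to 6 in the vehicle groups and at corticosterone day 9, is 1, 4, 5 and 6 at corticosterone day 3, and is 1, 3, 5 and 6 at corticosterone day 6.

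Bnip3 in vehicle cultures stood at 4.80, 4.77, 4.72 and 4.69 log2 CPM at day 0 and at 5.64, 5.79, 5.80 and 5.88 at day 3. It reached 7.71, 7.89, 8.11 and 8.14 at day 6 and 9.06, 8.93, 9.01 and 9.16 at day 9. Each day's 4 libraries lay above all those of the day before, a stepwise rise of 1.03 ± 0.13, 2.18 ± 0.13 and 1.08 ± 0.13. Bnip3l, its paralog, ran from 6.15 to 6.54 at day 0 and 6.27 to 6.55 at day 3, which overlap, to 7.23 to 7.52 at day 6 and 7.91 to 7.99 at day 9. It rose only after day 3, by 0.98 ± 0.10 to day 6 and by 0.60 ± 0.10 to day 9, and its difference between day 3 and day 0 was 0.12 ± 0.10 (adjusted p = 0.288).

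Ak4 was close to the lowest value of the table, -4.15, in most libraries of day 0 (-3.03, -0.37, -3.57 and -3.28) and was scattered at day 3 (-3.31, -1.05, -0.73 and -0.19). It stood at 3.32, 3.87, 3.70 and 3.98 at day 6 and at 5.14, 5.34, 5.39 and 5.14 at day 9. The libraries of day 6 and of day 9 did not overlap with each other or with those of the earlier days. The rise from day 0 to day 9 was 7.81 ± 0.61. Fold changes from such low levels depend on the small count that was added before the logarithm, and with 1 CPM added to each value the rise was 4.98. From day 3 to day 6 Ak4 rose by 5.04 ± 0.61, or 3.25 with 1 CPM added. Its difference of day 3 from day 0 was 1.24 ± 0.61 (adjusted p = 0.0715) and passed the threshold without replicate 4 of day 0 (1.97) or replicate 3 of day 3 (1.90).

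P4ha1 fell before it rose. It stood at 7.94, 7.91, 7.96 and 7.89 at day 0 and at 6.74, 6.82, 6.75 and 6.93 at day 3, with no overlap. It then reached 8.35, 8.47, 8.63 and 8.64 at day 6 and 9.25, 9.16, 9.24 and 9.13 at day 9, above day 0 in every library. The fall to day 3 was -1.12 ± 0.08 and the rise from day 3 to day 6 was 1.71 ± 0.08. P4ha2, which encodes the alternative subunit, did not fall: it ranged over 5.60 to 5.86 at day 0, 6.1 to 6.3 at day 3, 6.96 to 7.31 at day 6 and 7.64 to 7.78 at day 9. These 4 ranges do not overlap, and its rise by day 3 was 0.48 ± 0.07.

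Vegfa, the ligand, also rose at each step, from 6.00, 6.09, 5.87 and 5.92 at day 0 to 6.74, 6.80, 6.77 and 6.77 at day 3. It stood at 7.62, 7.78, 7.79 and 7.85 at day 6 and at 8.23, 8.30, 8.35 and 8.12 at day 9, and no 2 days overlapped. The rise from day 0 to day 9 was 2.28 ± 0.06, or 4.86-fold. Ankrd37 moved as P4ha1 did, lower first and higher later. It was 1.58, 1.05, 2.09 and 1.49 at day 0 and 0.31, 1.12, 0.88 and 0.90 at day 3, where the 2 groups overlap and the fall was -0.75 ± 0.24 (adjusted p = 0.00649), which was lost with 5 CPM added (-0.24). It was 4.29, 4.54, 5.15 and 5.09 at day 6 and 5.76, 5.62, 5.83 and 6.07 at day 9, far above all earlier libraries, a rise from day 3 to day 6 of 3.96 ± 0.24 (2.26 with 5 CPM added).

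Ndrg1 made its largest step early. It stood at 7.99, 7.91, 7.84 and 7.94 at day 0 and at 9.66, 9.78, 9.68 and 9.71 at day 3, a rise of 1.79 ± 0.06. It was 10.11, 10.16, 10.20 and 10.19 at day 6 and 10.44, 10.48, 10.48 and 10.26 at day 9, smaller steps of 0.46 ± 0.06 and 0.25 ± 0.06, of which the last was lost under quantile normalization (0.01). In all, Bnip3, P4ha2, Vegfa and Ndrg1 rose by day 3, where 36.5% of all genes were called higher, and P4ha1 and Ankrd37 fell, where 32.7% were called lower. From day 3 to day 6 all 8 rose (12.8% of all genes were called higher), and from day 6 to day 9 all but Ak4 (1.53 ± 0.61, adjusted p = 0.131) rose, where 4.69% of all genes were called higher. The day 9 step of Ak4 was called with 1 CPM added (1.46), with 5 CPM added (1.24) or when only the 2 groups were fitted. The comparisons between successive days were added after the values were seen.

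**Figure D2:**
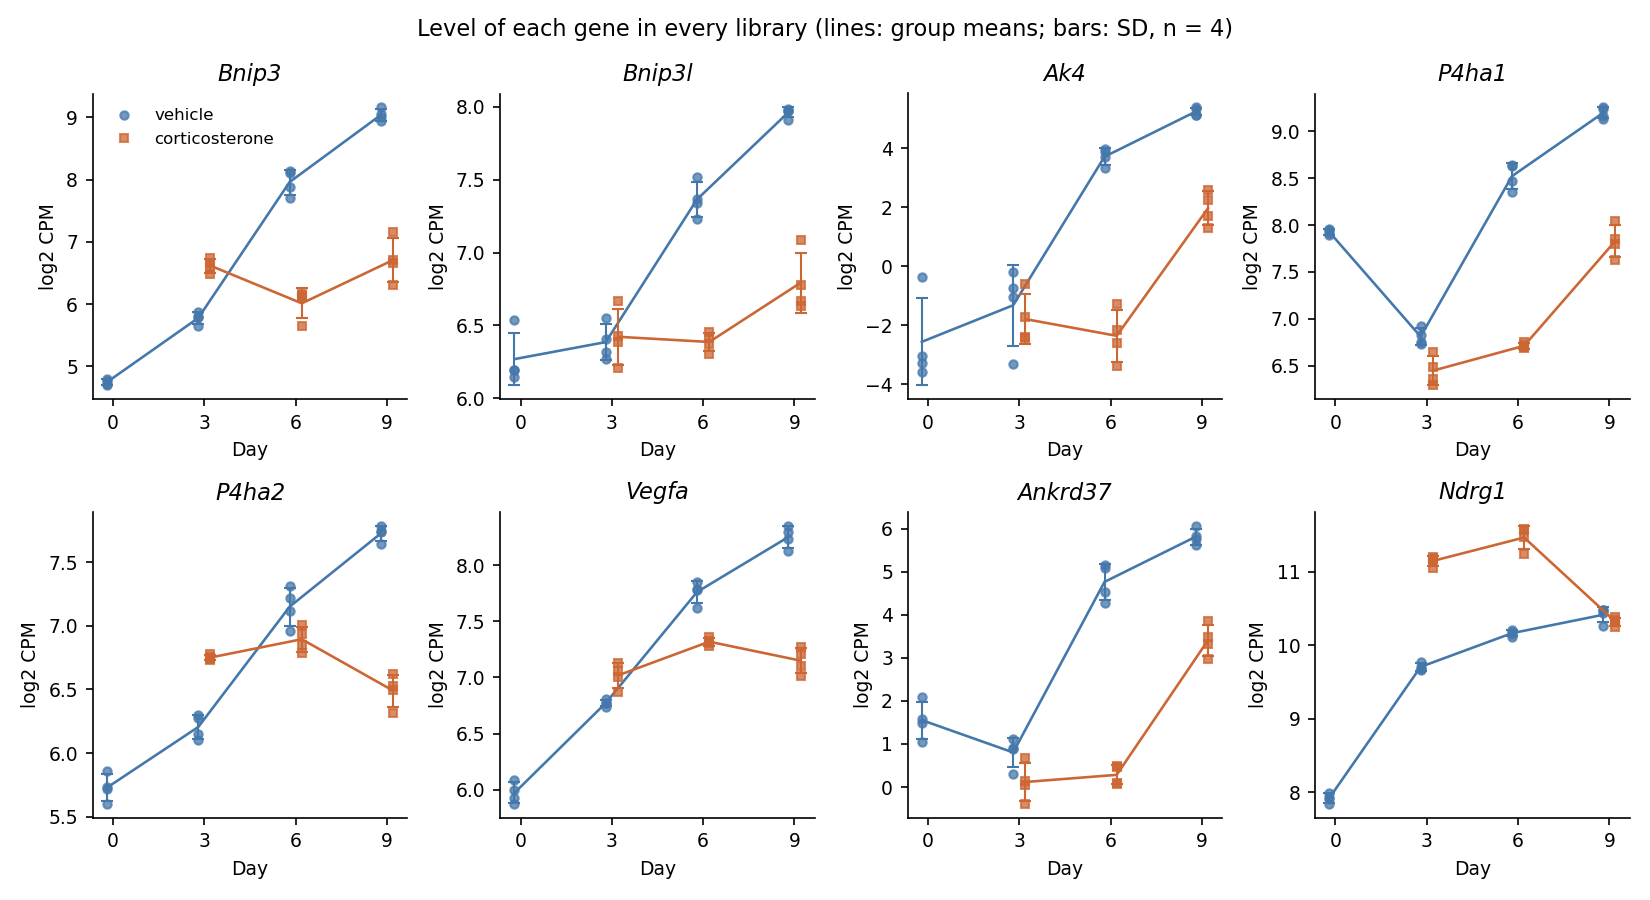
Log2 CPM of each of the 8 genes in every library by day, with vehicle in blue and corticosterone in orange; lines join group means and bars are SD of 4 libraries. In vehicle, Bnip3 climbed from 4.69 to 4.80 at day 0 up to 8.93 to 9.16 at day 9, while corticosterone cultures stayed at 5.65 to 7.16 over days 3 to 9, and Ndrg1 was above vehicle at days 3 and 6 and level with it at day 9.

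At the end of the corticosterone treatment, day 3, the 8 genes did not move one way. Ndrg1, Bnip3, P4ha2 and Vegfa were higher than in vehicle (4 of 8, where 23.3% of all genes were called higher), P4ha1 and Ankrd37 were lower (2 of 8, where 25.6% were called lower), and Bnip3l and Ak4 did not pass the test. The median of the 8 log2 fold changes was 0.14, and over all genes it was -0.01. Ndrg1 showed the largest difference of the 8, at 11.20, 11.17, 11.05 and 11.18 log2 CPM with corticosterone, all above the vehicle libraries of day 3 and also above those of day 9. This difference was 1.44 ± 0.06 (adjusted p = 3.03e-16), or 2.72-fold.

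Bnip3 at day 3 stood at 6.58, 6.75, 6.66 and 6.48 with corticosterone, above every vehicle library of that day, a difference of 0.84 ± 0.13 (adjusted p = 3.74e-06). P4ha2 was 6.74, 6.75, 6.73 and 6.78, also without overlap, and was higher by 0.55 ± 0.07 (adjusted p = 3.57e-07). Vegfa was 7.13, 6.87, 7.01 and 7.06, just above the vehicle libraries, and was higher by 0.25 ± 0.06 (adjusted p = 0.00179). These 3 genes thus lay above vehicle while the hormone was present. P4ha1 was 6.36, 6.65, 6.49 and 6.29, below every vehicle library, a difference of -0.36 ± 0.08 (adjusted p = 0.000248). Ankrd37 was -0.39, 0.05, 0.66 and 0.15, overlapping with vehicle, and differed by -0.69 ± 0.24 (adjusted p = 0.0177). That call was lost without vehicle replicate 4 (-0.58) or corticosterone replicate 1 (-0.52), with 1 CPM added (-0.39) and when only the 2 groups were fitted (adjusted p = 0.0671). The differences of Bnip3l, 0.04 ± 0.10 (adjusted p = 0.779), and of Ak4, -0.47 ± 0.61 (adjusted p = 0.549), were within the spread between libraries.

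At day 6, 3 days after the hormone was withdrawn, 7 of the 8 genes were lower in the cultures that had received corticosterone and Ndrg1 was still higher. Over all genes 24.3% were called lower and 22.9% higher. The median of the 8 log2 fold changes was -1.39, with 0.00 over all genes. All 8 calls were made under every alternative tried, including each replicate left out in turn and the replicate number as a block, and P4ha2 was the one gene whose groups overlapped. The other 6 lower genes lay wholly below vehicle, as did 24.5% of all genes, and Ndrg1 lay wholly above it, as did 23.8%.

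Ankrd37 at day 6 was 0.46, 0.08, 0.49 and 0.10 log2 CPM with corticosterone against more than 4 in every vehicle library, a difference of -4.48 ± 0.24 (adjusted p = 1.99e-14), or 22.4-fold, and -2.38 with 5 CPM added. Ak4 was -2.61, -1.27, -2.17 and -3.38, still at the low level of day 0, where vehicle had passed 3. Its difference was -6.08 ± 0.61 (adjusted p = 4.07e-09), and -3.54 with 1 CPM or -1.80 with 5 CPM added. The 2 mitophagy receptors were also lower. Bnip3 was 6.16, 6.11, 6.13 and 5.65, each below the lowest vehicle library by more than 1, and differed by -1.95 ± 0.13 (adjusted p = 1.13e-12), or 3.86-fold. Bnip3l was 6.41, 6.45, 6.37 and 6.31 and differed by -0.98 ± 0.10 (adjusted p = 3.46e-09), or 1.97-fold.

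The 2 collagen hydroxylase subunits differed in size at day 6. P4ha1 was 6.75, 6.69, 6.69 and 6.72 with corticosterone, below every vehicle library, a difference of -1.81 ± 0.08 (adjusted p = 2.96e-16). P4ha2 was 7.01, 6.94, 6.85 and 6.79, of which 1 library lay above the lowest of vehicle, and was lower (log2 fold change -0.26 ± 0.07, adjusted p = 0.00376). Vegfa was 7.28, 7.30, 7.36 and 7.33, below every vehicle library but by little, and was lower (log2 fold change -0.44 ± 0.06, adjusted p = 1.23e-06, or 1.36-fold). Ndrg1 ran the other way, at 11.58, 11.57, 11.47 and 11.24, the highest levels it reached in any group, and was higher by 1.30 ± 0.06 (adjusted p = 2.36e-15), or 2.47-fold.

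At day 9, 6 days into recovery, the same 7 genes other than Ndrg1 were lower than in vehicle, where 14.4% of all genes were called lower, and no member was called higher, where 14.1% of all genes were. The median of the 8 was -1.30, with 0.00 over all genes. Ndrg1 was 10.38, 10.31, 10.34 and 10.25 with corticosterone, overlapping with vehicle, and its difference was -0.09 ± 0.06 (adjusted p = 0.264), which passed the threshold only with weights per library (-0.13). The other 7 lay below vehicle in every library, as did 16.3% of all genes.

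Bnip3 at day 9 was 6.70, 6.67, 7.16 and 6.3 with corticosterone, lower (log2 fold change -2.33 ± 0.13, adjusted p = 3.92e-13, or 5.03-fold), and no treated library came within 1 log2 unit of vehicle. Ak4 was 1.72, 2.59, 2.26 and 1.30 and lower (log2 fold change -3.28 ± 0.61, adjusted p = 0.000173). Ankrd37 was 3.48, 3.33, 3.85 and 2.98 and lower (log2 fold change -2.41 ± 0.24, adjusted p = 1.71e-08). Both had by then risen in the corticosterone cultures and still lay below vehicle. P4ha1 was 7.85, 7.80, 8.05 and 7.63 and lower (log2 fold change -1.37 ± 0.08, adjusted p = 5.29e-13), and overlapped with its level before treatment. P4ha2 was 6.5, 6.53, 6.62 and 6.32 and lower (log2 fold change -1.24 ± 0.07, adjusted p = 7.99e-13). Vegfa was 7.21, 7.10, 7.27 and 7.02 and lower (log2 fold change -1.10 ± 0.06, adjusted p = 6.85e-13). Bnip3l, at 6.64 to 7.09, was lower (log2 fold change -1.17 ± 0.10, adjusted p = 8.23e-10).

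**Figure D3:**
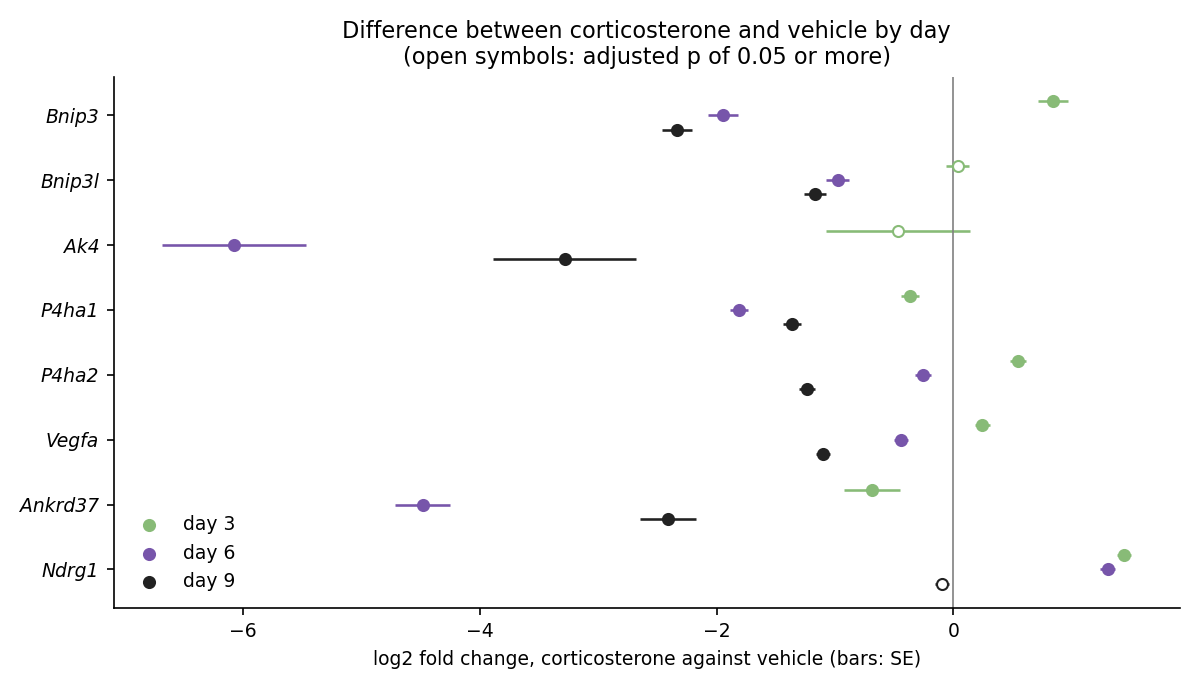
Log2 fold change of corticosterone against vehicle for each gene at day 3 (green), day 6 (purple) and day 9 (black), with bars of SE and open symbols where the adjusted p was 0.05 or more. At day 6 all genes but Ndrg1 (1.30) lay below 0, from -0.26 for P4ha2 to -6.08 for Ak4, and at day 9 Ndrg1 lay at -0.09.

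The change of the corticosterone difference from day to day was tested directly. From day 3 to day 6 it moved down for 7 of the 8 genes, where 4.90% of all genes were called in that direction. The shift was -2.79 ± 0.18 (adjusted p = 5.34e-11) for Bnip3, which turned from higher to lower than vehicle, and -0.69 ± 0.09 (adjusted p = 4.87e-06) for Vegfa and -0.80 ± 0.10 (adjusted p = 3.37e-06) for P4ha2, which turned likewise. It was -3.80 ± 0.33 (adjusted p = 1.05e-08) for Ankrd37, -1.44 ± 0.11 (adjusted p = 4.55e-10) for P4ha1, -1.01 ± 0.14 (adjusted p = 1.14e-05) for Bnip3l and -5.61 ± 0.86 (adjusted p = 6.47e-05) for Ak4. With 5 CPM added it was -2.23 for Ankrd37 and -1.76 for Ak4. For Ndrg1 the shift was -0.14 ± 0.09 (adjusted p = 0.361).

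From day 6 to day 9, a comparison that shares its day 6 libraries with the one before, the 8 genes parted. The difference moved up, toward vehicle, for Ankrd37 (2.08 ± 0.33, adjusted p = 2.4e-05), P4ha1 (0.44 ± 0.11, adjusted p = 0.00214) and Ak4 (2.79 ± 0.86, adjusted p = 0.0139), where 16.0% of all genes were called in that direction. It moved further down for P4ha2 (-0.98 ± 0.10, adjusted p = 2.48e-08) and Vegfa (-0.66 ± 0.09, adjusted p = 1.78e-06), and for Ndrg1 it moved down to the vehicle level (-1.40 ± 0.09, adjusted p = 6.35e-12), where 14.9% of all genes were called. For Bnip3 (-0.38 ± 0.18, adjusted p = 0.106) and Bnip3l (-0.19 ± 0.14, adjusted p = 0.314) the shift did not pass the test. The upward shifts of the low genes depended on the scale, since with 5 CPM added Ankrd37 gave 0.41, no longer called, and Ak4 gave -0.45, the other direction, and with 1 CPM added Ankrd37 gave 1.37, still called, and Ak4 gave 0.56, no longer called (adjusted p = 0.123). For Ndrg1 quantile normalization gave -0.91. Bnip3 passed the threshold without corticosterone day 6 replicate 6 (-0.50) or day 9 replicate 5 (-0.53), and with weights per library (-0.53).

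Within the corticosterone series 4 of the 8 genes passed the test between day 3 and day 6. Vegfa (0.30 ± 0.06), Ndrg1 (0.32 ± 0.06) and P4ha1 (0.27 ± 0.08) rose, with 15.2% of all genes called higher, and Bnip3 fell (-0.60 ± 0.13), with 15.0% called lower. When only these 2 groups were fitted 2 of the 4 calls were left, those of P4ha1 and Ndrg1 being lost. In vehicle all 8 had risen over the same interval.

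Between day 6 and day 9 of the corticosterone series 5 genes rose, with 25.1% of all genes called higher. These were Ak4 (4.33 ± 0.61), Ankrd37 (3.13 ± 0.24), P4ha1 (1.12 ± 0.08), Bnip3 (0.70 ± 0.13) and Bnip3l (0.41 ± 0.10), and each lay higher at day 9 with no overlap between the days, as did 25.4% of all genes. With 5 CPM added the rise was 0.79 for Ak4 and 1.34 for Ankrd37. Ndrg1 (-1.15 ± 0.06), P4ha2 (-0.40 ± 0.07) and Vegfa (-0.17 ± 0.06, adjusted p = 0.026) fell, with 24.4% of all genes called lower. The call of Vegfa was lost with the replicate number as a block (-0.16, adjusted p = 0.0606), under quantile normalization (-0.13), and without corticosterone day 6 replicate 5 (-0.15), day 9 replicate 4 (-0.15) or day 9 replicate 6 (-0.12).

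Set against the cultures before treatment, the corticosterone groups kept Ndrg1, Bnip3, Vegfa and P4ha2 raised at day 3 and at day 6, where 39.6 and 38.6% of all genes were called higher. P4ha1 and Ankrd37 were below day 0 at both days, where 36.9 and 36.6% of all genes were called lower. At day 6 Ndrg1 was 3.55 ± 0.06 above day 0, Vegfa 1.35 ± 0.06, Bnip3 1.27 ± 0.13 and P4ha2 1.17 ± 0.07. P4ha1 was at -1.21 ± 0.08 and Ankrd37 at -1.27 ± 0.24 (-0.36 with 5 CPM added). Ak4 (0.20 ± 0.61, adjusted p = 0.77) and Bnip3l (0.12 ± 0.10, adjusted p = 0.274) overlapped with day 0. At day 3 Ak4 was called without day 0 replicate 4 (1.50), and Bnip3l without day 0 replicate 6 (0.24), without corticosterone day 3 replicate 4 (0.23) or with weights per library (0.20). At day 9 all but P4ha1 (-0.09 ± 0.08, adjusted p = 0.278) were above day 0, where 33.4% of all genes were called higher, with Bnip3 at 1.96 ± 0.13, Ankrd37 at 1.86 ± 0.24 (0.97 with 5 CPM added) and Ak4 at 4.53 ± 0.61 (0.78 with 5 CPM added).

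The order of the 7 groups shows the same split. Vehicle day 9 was the highest group and vehicle day 6 the next for 7 genes, without overlap between these 2 groups, an order that 2.49% of all genes had. For 6 of these 7 vehicle day 6 was also clear of all groups below (1.08% of all genes), the exception being P4ha2, where it overlapped with corticosterone day 6. For Ndrg1 the 2 highest groups were corticosterone day 6 and day 3, which did not overlap, and vehicle day 9 followed, overlapping with corticosterone day 9. Among the lower groups, those of Bnip3l (vehicle day 0 and day 3 and the 3 corticosterone groups) overlapped each with its neighbour in the order. For Ak4 the 4 lowest groups, vehicle day 0, corticosterone day 6, corticosterone day 3 and vehicle day 3, likewise overlapped each with the next.

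The paralogs were also compared within libraries, as the difference of their log2 CPM, a comparison chosen after the values were seen. The log2 ratio of P4ha1 to P4ha2 at day 3 was -0.30 ± 0.17 (SD) with corticosterone and 0.61 ± 0.11 with vehicle. At day 6 it was -0.18 ± 0.09 with corticosterone and 1.37 ± 0.04 with vehicle. The difference was -0.91 at day 3 and -1.55 at day 6 (each p = 0.0286 in a two-sided exact permutation test of 4 against 4 libraries, the smallest p that the 70 splits allow). At day 9 the ratios were 1.34 ± 0.07 and 1.47 ± 0.03, a difference of -0.13 (exact permutation p = 0.0571). The ratio of Bnip3 to Bnip3l was 0.80 higher with corticosterone at day 3, and the difference was -0.97 at day 6 and -1.16 at day 9 (each exact permutation p = 0.0286). Over these 6 tests the adjusted p was 0.0343 for 5 of them and 0.0571 for P4ha1 against P4ha2 at day 9. Such ratios show unequal change of the 2 genes and not which of them was stable.

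The other genes of the pathway were read from lists of known members, here beside the shares of all genes. At day 3 23.3% of all genes were called higher and 25.6% lower with corticosterone. These shares were 22.9% and 24.3% at day 6, and 14.1% and 14.4% at day 9. Of 14 genes for the HIF subunits and oxygen sensing, 3 were higher and 4 lower with corticosterone at day 6, and 2 were higher and 5 lower at day 9. The oxygen-sensing hydroxylases Egln3 and Egln1, themselves known HIF targets, were both lower at day 6, with log2 fold changes of -4.60 ± 0.15 and -1.21 ± 0.08. Egln3 rose in vehicle from 1.41 log2 CPM at day 0 to 7.32 at day 9, and with corticosterone it stood at 1.30 at day 6 and 4.19 at day 9. The α subunit gene Hif1a differed by -0.20 ± 0.06 at day 3 and -0.15 ± 0.06 at day 9, both called, and by -0.11 ± 0.06 (adjusted p = 0.0962) at day 6. Epas1, which encodes the other α subunit, was higher by 2.61 ± 0.39, 3.96 ± 0.39 and 1.96 ± 0.39 at days 3, 6 and 9, at group means of -0.48 to 1.44 with corticosterone and -2.60 to -1.56 in vehicle, near the lower end of the table. The β subunit gene Arnt2 was lower at day 3 (-0.93 ± 0.10) and day 6 (-0.80 ± 0.10).

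Of 14 glycolytic HIF targets, 3 were higher and 2 lower at day 3, 13 were lower at day 6 and all 14 were lower at day 9, with median log2 fold changes of 0.07, -1.14 and -1.14. The median over the 8 members was 0.14, -1.39 and -1.30. Ldha, which makes lactate from pyruvate, was lower, with log2 fold changes of -2.24 ± 0.08 at day 6 and -1.49 ± 0.08 at day 9. Pkm, Pgk1 and Pfkl, which encode enzymes of the pathway to pyruvate, were lower at day 6, with log2 fold changes of -1.48 ± 0.05, -1.67 ± 0.09 and -1.80 ± 0.10. In vehicle all 14 were above day 0 at day 9, with a median of 1.47.

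Of 32 further HIF targets outside glycolysis 27 had an entry, and 12 of them were higher and 7 lower with corticosterone at day 3, 3 higher and 19 lower at day 6, and 23 lower at day 9 with none higher. Their medians were 0.14, -0.46 and -0.89. Pdk1, the kinase that holds back pyruvate oxidation, was lower at day 6 (-2.53 ± 0.12), as was Fam162a (-2.20 ± 0.15). The collagen cross-linking enzyme gene Loxl2 was lower already at day 3 (-0.46 ± 0.06). The 3 that were higher at day 6, named after their values were seen, were Cited2, which encodes a competitor of HIF for its coactivators (0.86 ± 0.08), the endothelin gene Edn1 (2.07 ± 0.16) and Pfkfb3, which encodes a regulator of glycolysis (0.99 ± 0.10). Adm, the adrenomedullin gene, was higher at day 3 (4.35 ± 0.35) and lower at day 9 (-2.92 ± 0.35).

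Genes that share a family or a task with the members gave other counts. Among all genes 23.3% were called higher and 25.6% lower at day 3, and 22.9% and 24.3% at day 6. Of 9 measured family relatives, 5 were higher and 1 lower at day 6. Vegfd (0.88 ± 0.06), Ak3, which encodes another mitochondrial adenylate kinase (0.40 ± 0.03), and Ndrg3 (0.28 ± 0.05) were higher, and Ndrg4 was lower (-0.66 ± 0.09). Of 8 partners of collagen hydroxylation and folding, 5 were lower at day 3 and 4 at day 6, with none higher. P4hb, the β subunit that pairs with the P4ha1 or P4ha2 product, was lower at day 6 (-0.64 ± 0.07), as were P3h3 (-0.79 ± 0.08), P3h2 (-0.41 ± 0.08) and Plod3 (-0.32 ± 0.07).

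Of 15 measured other mitophagy genes, 8 were higher at day 3 with none lower, and at day 6 8 were higher and 1 lower. Bnip3 and Bnip3l were both lower at day 6. The list holds receptors and adaptors and also regulators, such as Pink1, Ulk1 and Pptc7. Gabarapl1, which encodes an autophagosome protein that such receptors bind, was higher by 1.38 ± 0.10 at day 6, the kinase gene Pink1 by 0.69 ± 0.08 and Pptc7 by 0.53 ± 0.05, and the autophagy kinase gene Ulk1 was lower (-0.33 ± 0.06). At day 9 none was higher, and 1 was lower, Ulk1 (-0.69 ± 0.06). Of 5 VEGF receptors and coreceptors, 1 was higher and 3 were lower at day 6. For both lists the shares of all genes at day 6 were 22.9% higher and 24.3% lower. The receptor gene Kdr was higher by 5.32 ± 0.38 at day 3 and 5.54 ± 0.38 at day 6, at 3.05 log2 CPM at day 6 against -2.49 in vehicle. Nrp2, Nrp1 and Flt1 were lower at day 6, with log2 fold changes of -1.53 ± 0.06, -0.54 ± 0.05 and -0.97 ± 0.12.

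**Figure D4:**
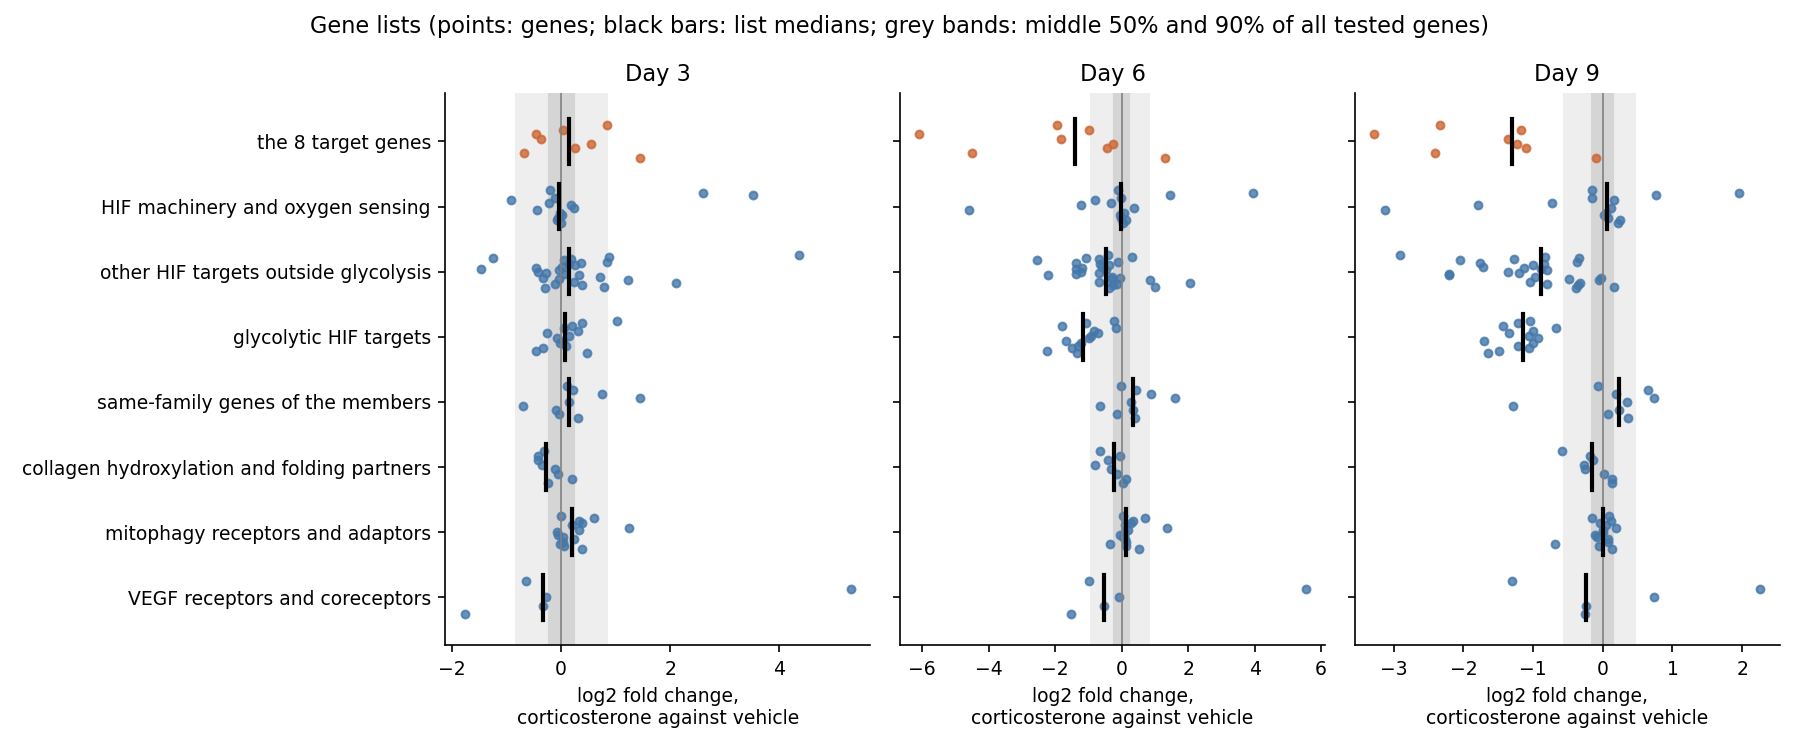
Log2 fold change of corticosterone against vehicle for the genes of each list at days 3, 6 and 9 (points), with list medians as black bars and the middle 50% and 90% of all tested genes as grey bands; the horizontal scale differs between days. The 8 target genes (orange) had medians of 0.14, -1.39 and -1.30, and the glycolytic targets 0.07, -1.14 and -1.14.

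The genes most like each member over the 28 libraries, by Pearson's r of log2 CPM among genes with a mean above 1, are given as a description, since the libraries share their groups. P4ha1 was most like Ldha (r = 0.997) and Pkm (0.994). Bnip3 was most like Aldoa (0.979), Bnip3l like Egln1 (0.977), Ak4 like Egln3 (0.960) and Ankrd37 like Egln3 (0.968). Vegfa was most like Slc2a1, the glucose transporter gene (0.973), and P4ha2 like Hk2, the hexokinase gene (0.955). Next came Chd5 for Vegfa (0.968) and Unc13a for P4ha2 (0.951), which are on no pathway list used here. Ndrg1 stood apart, being most like Mamld1 (0.990), Il17rb (0.988) and Ugt1a6a (0.987), none of which is on the pathway lists used here. Between members r was highest for P4ha2 and Vegfa (0.97), and that of Ndrg1 with the others ran from -0.31 with P4ha1 to 0.65 with P4ha2.

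Some transcripts could share reads with the members. In the GENCODE M21 annotation of GRCm38, exons of Ankrd37 overlap exons of Lrp2bp and Ufsp2 on the other strand, and whether the authors' counting used strand is not given in the sources used here. Lrp2bp was lower with corticosterone, at log2 fold changes of -0.76 ± 0.28, -2.68 ± 0.28 and -2.22 ± 0.28 at days 3, 6 and 9, in the direction of Ankrd37, and the part of the overlap in either result was not tested. Ufsp2 differed by -0.02 ± 0.08 (adjusted p = 0.875) at day 6. Near-identical transcripts exist for Ak4 (Ak3l2-ps, 99.6% identical over 672 bases), for Bnip3 (Gm16439, 98.9% over 564 bases, and 2 others), for Bnip3l (Bnip3l-ps, 99.4% over 1131 bases) and for a stretch of P4ha2 (Gm45528, 95.2% over 229 bases), so the values of these members are uncertain to that extent. Bnip3l-ps has an entry of its own, and it differed by -1.53 ± 1.12 (adjusted p = 0.274) at day 6. Exons of Bnip3 (Gm45507) and Ndrg1 (Gm17035 and Gm2895) also overlap genes on the other strand.

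Other measures moved with the groups, and their part in the results on the 8 genes was not tested. The 11 measured genes of the mitochondrial genome took 3.23 to 3.35% of CPM at vehicle day 0, 5.19 to 6.1% at vehicle days 3 to 9, 6.59 to 7.44% at corticosterone day 3, 8.16 to 9.16% at day 6 and 6.28 to 6.99% at day 9. Of 6 macrophage markers only Csf1r and Cd68 had an entry, and their summed level was 9.59 to 10.7 CPM at vehicle day 0, 28.4 to 29.6 at day 3, 49.1 to 57.6 at day 6 and 87.6 to 108 at day 9. With corticosterone it was 7.88 to 11.3, 10.3 to 13.8 and 45.7 to 50.8 CPM at days 3, 6 and 9, and the defining markers Ptprc, Adgre1, Itgam and Mrc1 had no entry. Cd68 carried this sum, with group means from 2.88 log2 CPM at day 0 to 6.62 at day 9 in vehicle, while Csf1r was lower after day 0, at 1.36 at day 0 and -0.79 at day 6. Of 7 fibroblast markers 4 had an entry, with 9.69 to 38.6 CPM in vehicle and 42.6 to 108 CPM with corticosterone. Dcn was well above vehicle in that sum, at a mean of 6.48 against 3.72 log2 CPM at day 3, while Col1a1 was lower with corticosterone, at 1.65 against 3.03 at day 3 and 1.40 against 3.23 at day 6. Of 5 endothelial markers 2 had an entry, with at most 5.77 CPM in any library, and of 5 smooth muscle markers 2, with at most 4.24 CPM.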

How the data were processed

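Stranded mRNA libraries of 28 DC2 samples (7 groups of 4) were analysed. The authors deposited log2 CPM values, which the file name calls normalized. The submitters' processing notes name kallisto, edgeR 3.40.1, limma 3.54.0 and the build mm10 without their role or order. The normalization method and the prior count are not given in the sources used here. Counts were not used here, so the depth behind each value is unknown. Taken back from the log scale, a library summed to 949069 to 1059648 CPM, and no 2 libraries were copies (smallest root mean square difference 0.282 log2). One entry without a symbol (0.0267 to 0.0698% of CPM) was left out.

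Group means were fitted in 1 linear model with limma 3.58.1 in R 4.3.3 to 13128 genes (log2 CPM above 0 in at least 4 libraries, which removed 0), with empirical Bayes moderation and an intensity trend, 21 residual degrees of freedom and Benjamini-Hochberg adjustment over all genes in each of 15 contrasts. The scripts were tested on simulated data. The members, lists and tests were chosen with earlier results of these data known. From each list the 4 genes with the smallest p at day 6 were named, with HIF subunit genes and members at odds with their list; 1 of the genes so chosen is not reported here. Same-numbered samples deviated together in every pair (r over 0.1) for corticosterone against vehicle at day 6 (0.110 to 0.156), vehicle day 6 against day 3 (0.113 to 0.174) and corticosterone day 9 against day 6 (0.129 to 0.209); the labels give no meaning to the numbers. Similar transcripts came from BLAST 2.17.0 (at least 95% identity over 200 bases). Alternatives were other filters, scalings, pseudocounts, moderation, library weights, thresholds, a replicate block, only the groups compared, and each library left out in turn.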

Additional observations from a re-analysis of the deposited data

Results flagged for a closer look

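The corticosterone difference changed between day 3 and day 6, by limma's test of the difference itself, for Bnip3 (-2.79), Bnip3l (-1.01), Ak4 (-5.61), P4ha1 (-1.44), P4ha2 (-0.80), Vegfa (-0.69) and Ankrd37 (-3.80), all downward on the log2 scale. It changed again between day 6 and day 9, upward for Ak4 (2.79), P4ha1 (0.44) and Ankrd37 (2.08), and downward for P4ha2 (-0.98), Vegfa (-0.66) and Ndrg1 (-1.40). The upward changes of Ak4 and Ankrd37 depended on the scale. With 5 CPM added Ak4 gave -0.45, the other direction, and Ankrd37 gave 0.41, no longer called.

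Single libraries stood apart from the other 3 of their group in 3 of the 56 combinations of member and group, where chance gives about 1 in 20 (5%). Bnip3 stood at 5.65 log2 CPM in corticosterone day 6 replicate 6, below the others. Bnip3l stood at 6.54 in vehicle day 0 replicate 6, above the others. Ak4 stood at -0.37 in vehicle day 0 replicate 4, above the others.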

How the results depend on the processing

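The number of members called stayed within 1.5 times its value in 330 of 331 combinations of comparison and alternative, the exception being corticosterone day 6 against day 3, where fitting only these groups called 2 in place of 4. Of the single fold changes, 2615 kept their direction and side of the threshold, 19 lost the call, 13 gained one and 1 reversed, that of Ak4 between the corticosterone differences of day 9 and day 6, at -0.45 with 5 CPM added in place of 2.79. Among the groups compared, Ak4 lay at -3.38 to -1.27 log2 CPM at corticosterone day 6 and at 1.30 or more in the others. The direction of this change thus depends on the scale. The replicate block took away the call of Vegfa between corticosterone days 9 and 6 (-0.16). It left the calls of all members in the other 14 comparisons as they were. Bnip3 was then at -1.97 at day 6 and -2.33 at day 9. Corticosterone and vehicle samples of the same number correlated weakly, at -0.03 to 0.07 at day 3 and 0.03 to 0.17 at day 9. Without depth, counting error could not be separated from other spread, and it limits Ak4 and early Ankrd37 most.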
